A study of Mus musculus with 6 samples.

Results

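A group of 10 genes that encode non-fibrillar collagens of the interstitium was followed in infarcted mouse heart. They comprise 3 FACIT collagens (Col12a1, Col14a1 and Col16a1), 2 short-chain collagens (Col8a1 and Col8a2), 3 beaded filament collagens (Col6a1, Col6a2 and Col6a3) and 2 multiplexins (Col15a1 and Col18a1). The genes were chosen by collagen class, with earlier results of these data known. All 10 of them were among the 20094 genes tested, out of 36047 genes to which the transcripts were joined. RNA was sequenced from the infarct area of C57BL6 mice aged 12 weeks, 48 h after ischemia/reperfusion (I/R), an operation in which a coronary artery is tied off and then reopened. In one group, 3 mice received LGK-974, and in the other, 3 mice received DMSO, the solvent in which it was dissolved. Both groups underwent the operation, and no tissue from unoperated hearts was part of the comparison. By inhibiting Porcupine, which adds a lipid to newly made Wnt proteins, LGK-974 prevents the secretion of these proteins. It was given by mouth and reached the whole animal, so the treatment is not specific to a cell type of the heart.

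Collagens are built from chains that wind around each other into a triple helix. Fibrillar collagens assemble into the fibrils that give a scar its tensile strength, whereas the non-fibrillar ones decorate or connect these fibrils. FACIT collagens (fibril-associated collagens with interrupted triple helices) sit on the surface of fibrils and influence their spacing and thickness. Collagen VIII, the short-chain collagen, forms hexagonal networks around vessels and in injured tissue, collagen VI forms beaded filaments near cells, and the multiplexins XV and XVIII lie at the border of basement membranes and interstitium. In the heart, fibroblasts are the main source of most of these proteins, with contributions from endothelial and mural cells.

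The libraries held 41579787 to 80398211 estimated counts, of which 28.1 to 53.6% belonged to mitochondrial genes, with the lowest share in LGK-974 replicate 3. DMSO replicate 1 stood apart in another way, since 98.8% of 1780 olfactory and taste receptor genes had counts there, compared with 52.5 to 82.6% in the other libraries. Levels are given as CPM, counts scaled to library size and to the TMM factors of edgeR. The p-values set a difference between groups against the variation between these libraries, which holds both counting error and the spread between mice. Cardiomyocyte markers such as Myh6 were abundant, and 12 of them summed to between 19905 and 28668 CPM in LGK-974 libraries and between 25326 and 34657 in DMSO libraries.

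All 10 genes had a positive log2 fold change with LGK-974, as had 40.5% of all genes and 58.0% of those with a mean of at least 10 CPM. Their median was 0.71, against −0.13 over all genes tested and 0.06 over those with a mean of at least 10 CPM. The genes of the FACIT class, Col8a1 and Col15a1 were 1.94 to 2.59 times as high as under DMSO, whereas the collagen VI genes and Col18a1 were higher by a factor of 1.23 to 1.37. None of the 10 genes passed an adjusted p of 0.05 in the quasi-likelihood test of edgeR (Benjamini-Hochberg over all genes), and neither did any other gene (0.00% of 20094). At an unadjusted p under 0.05, the same test marked 2699 genes, 1257 of them higher (6.26%) and 1442 lower (7.18%) with LGK-974. Of the 10 collagen genes, 5 were among those higher and 0 among those lower. These background counts depended on single libraries, for without LGK-974 replicate 3 there were 630 genes higher (3.14%) and 214 lower (1.06%), without LGK-974 replicate 1 there were 819 higher, and without DMSO replicate 3 there were 2808 lower. The lower count was also 655 without LGK-974 replicate 2 and 673 without DMSO replicate 1. With DESeq2, which was run without edgeR's filter on low counts, 3234 of 34193 genes (9.46%) were lower. In each of these settings, 5 or 6 of the collagen genes were higher and 0 lower. Among the 8127 genes with a mean of at least 10 CPM, to which all of these genes but Col8a2 belong, the share of genes higher at that p was 12.0%. In 6 collagen genes, every LGK-974 library lay above every DMSO library, which was the case for 10.7% of all genes and for 18.8% of those with a mean of at least 10 CPM. None of the 10 genes had every LGK-974 library below every DMSO library (7.27% of all genes). DESeq2, the alternative without that filter, called 4 of the genes higher at an adjusted p under 0.05 (Col12a1, Col14a1, Col8a1 and Col15a1). It called 0.852% of its 23595 genes with an adjusted p higher and 0.373% lower. Without that filter, edgeR called 5 of the 10 genes and 1206 of 34257 genes, so the contrast between the tools includes the filter.

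**Figure D1:**
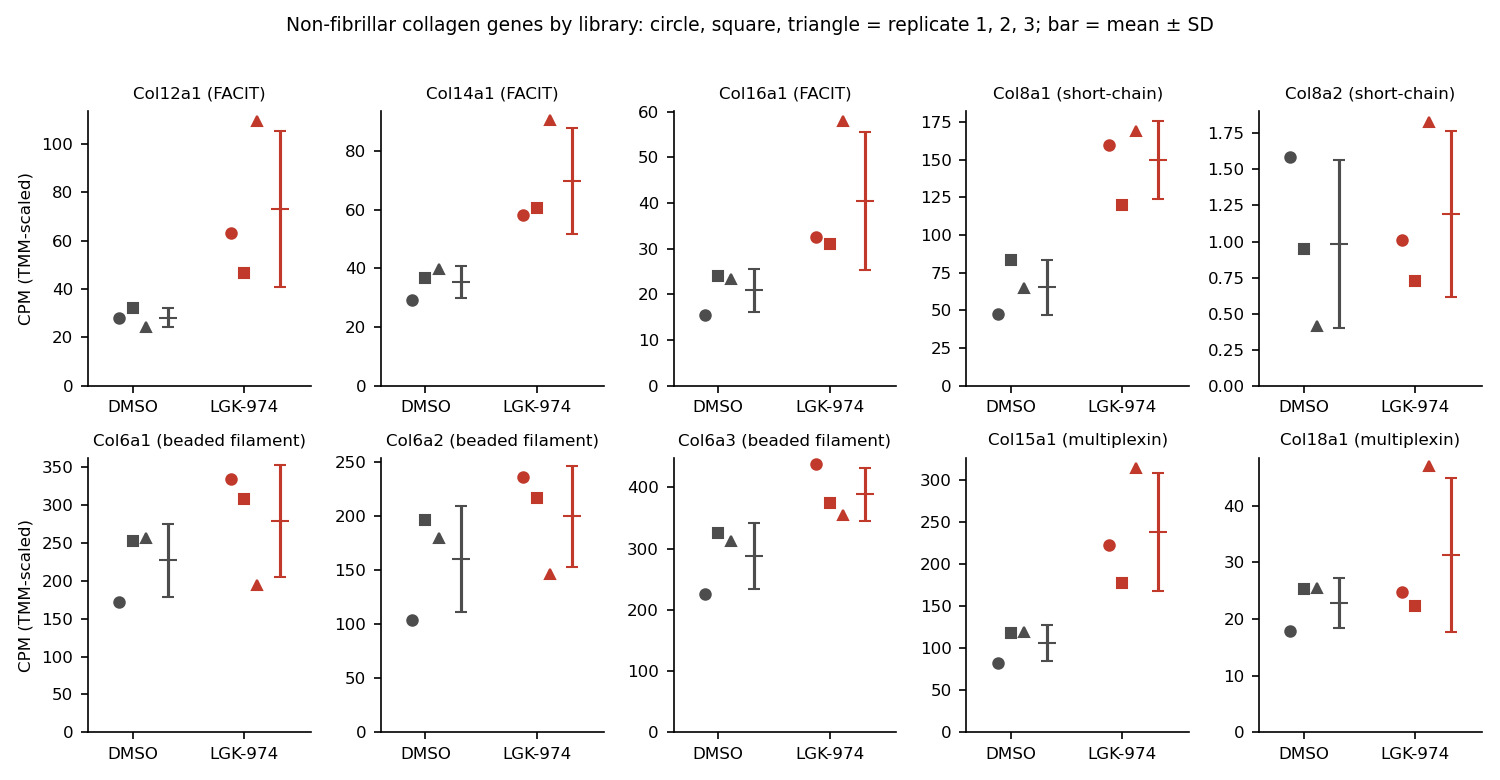
CPM of the 10 collagen genes in each library, with DMSO in grey and LGK-974 in red, symbols for replicates 1 to 3, and bars for the mean ± SD of 3 libraries. In the 3 FACIT genes, Col8a1, Col6a3 and Col15a1 the groups did not overlap, and LGK-974 replicate 3 was the highest library of its group in 7 genes and the lowest in Col6a1, Col6a2 and Col6a3.

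Col12a1 encodes collagen XII, a large FACIT collagen that bridges fibrils and is associated with mechanically loaded and healing tissue. The gene lies at chr9:79598991-79718831 on the minus strand of GRCm38. Its level was 63.1, 46.8 and 109 CPM in LGK-974 replicates 1, 2 and 3, and 27.8, 32.3 and 24.4 CPM in DMSO replicates 1, 2 and 3. The groups did not overlap, and the lowest LGK-974 library was 1.45 times the highest DMSO library. The log2 fold change was 1.37 (standard error 0.310, unadjusted p = 0.00236, adjusted p = 0.368 with edgeR's quasi-likelihood test). This placed the gene at rank 70 of 20094 by fold change and was the largest of the 10 genes. DESeq2 gave an adjusted p of 0.00337.

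Col14a1 encodes collagen XIV (undulin), a FACIT collagen that binds decorin and limits the lateral fusion of fibrils. It is located at chr15:55307750-55520803 on the plus strand. The LGK-974 libraries had 58.2, 60.4 and 90.5 CPM, and the DMSO libraries had 29.4, 36.6 and 39.9 CPM. Again the groups did not overlap, with an LGK-974 minimum 1.46 times the DMSO maximum. This corresponded to a log2 fold change of 0.98 (standard error 0.223, unadjusted p = 0.00246, adjusted p = 0.368 with edgeR, and 0.0148 with DESeq2).

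Col16a1 encodes collagen XVI, a smaller FACIT collagen found near cells and in fibrillin-rich matrix. The gene is at chr4:130047840-130099283 on the plus strand. Levels were 32.5, 31.0 and 58.0 CPM under LGK-974 and 15.5, 24.0 and 23.3 CPM under DMSO. The replicates 1 and 2 under LGK-974 lay only slightly above the DMSO libraries, and replicate 3 stood well above them. The log2 fold change was 0.95 (standard error 0.289, unadjusted p = 0.0114, adjusted p = 0.368 with edgeR, and 0.0802 with DESeq2), so that neither of these fits called it. Without the filter on low counts, the edgeR adjusted p was 0.0157.

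Collagen VIII is made of the products of Col8a1 and Col8a2, which are secreted by vascular cells and by fibroblasts of injured tissue. Col8a1 is at chr16:57624258-57754737 on the minus strand, and Col8a2 at chr4:126286793-126314330 on the plus strand. Col8a1 had 160, 120 and 169 CPM in LGK-974 replicates 1 to 3, and 47.3, 83.2 and 65.0 CPM in DMSO replicates 1 to 3. The lowest LGK-974 library was 1.44 times the highest DMSO library. The log2 fold change was 1.20 (standard error 0.249, unadjusted p = 0.00145, adjusted p = 0.368 with edgeR, and 0.00209 with DESeq2), and its unadjusted p was the smallest of the 10 genes. Col8a2 was barely expressed. It had 1.01, 0.728 and 1.83 CPM under LGK-974 and 1.58, 0.952 and 0.418 CPM under DMSO, from 17 to 117 counts per library. The groups overlapped fully, the log2 fold change of 0.28 was smaller than its standard error of 0.670 (adjusted p = 0.851 with edgeR), and its sign depended on the library and on the counting (−0.08 without LGK-974 replicate 3 and −0.54 with counts scaled from TPM).

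Within a library, the ratio of Col8a1 to Col8a2 was formed from TPM, an abundance scaled to transcript length. It was 138, 144 and 80.4 under LGK-974 and 12.0, 76.7 and 42.7 under DMSO. The mean log2 ratio was higher by 1.78 under LGK-974 (two-sided exact permutation test, p = 0.1, the smallest that 3 mice against 3 allow). The difference was 0.85 when CPM took the place of TPM (exact p = 0.2) and 0.80 when protein-coding transcripts over 2000 bases alone were counted (exact p = 0.5), and the groups were no longer apart in either case. In DMSO replicates 1 and 3, the transcript Col8a2-202 of 343 bases held 56.7 and 71.5% of the gene's TPM with 4.76 and 8.41% of its counts. It had no counts in the other libraries.

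In DMSO libraries, the collagen VI genes had the highest mean CPM of the 10 genes. The protein is assembled from chains encoded by Col6a1, Col6a2 and Col6a3 into filaments that link cells to the surrounding matrix. Col6a1 and Col6a2 are neighbours on the minus strand of chromosome 10 (chr10:76708792-76726168 and chr10:76595762-76623630), and Col6a3 is on chromosome 1 (chr1:90765923-90843971, minus strand). Col6a1 had 334, 307 and 194 CPM under LGK-974 and 171, 253 and 256 CPM under DMSO. Col6a2 had 236, 217 and 147 CPM under LGK-974 and 104, 197 and 180 CPM under DMSO. In both genes, LGK-974 replicates 1 and 2 were above all DMSO libraries, while replicate 3 was below DMSO replicates 2 and 3. Their log2 fold changes were 0.30 (standard error 0.270, adjusted p = 0.581) and 0.32 (standard error 0.292, adjusted p = 0.587) with edgeR, which was not distinguishable from the variation between these libraries. With single libraries left out, they moved between 0.15 (without LGK-974 replicate 1) and 0.57 (without LGK-974 replicate 3) for Col6a1 and between 0.11 (without DMSO replicate 1) and 0.56 (without LGK-974 replicate 3) for Col6a2, and without LGK-974 replicate 3 neither gene overlapped between the groups. Col6a3 had 438, 375 and 355 CPM under LGK-974 and 227, 326 and 313 CPM under DMSO, without overlap but with a gap of only 1.09 times between the nearest libraries. Its log2 fold change was 0.43 (standard error 0.217, unadjusted p = 0.0833, adjusted p = 0.381 with edgeR).

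On the TPM of all transcripts, the 3 chains kept similar proportions in both groups. The ratio of Col6a2 to Col6a1 ranged from 0.617 to 0.80 over the 6 libraries, and its mean log2 difference between groups was 0.05 (two-sided exact permutation p = 0.8). For Col6a3 to Col6a1, the ratio ranged from 0.841 to 1.20 and the log2 difference was 0.09 (exact p = 0.6). Both differences were smaller than the SD of the log2 ratio in the DMSO group (0.188 and 0.224). They turned negative without DMSO replicate 1 for Col6a2 to Col6a1 (−0.047), and without LGK-974 replicate 3 (−0.0027) or DMSO replicate 3 (−0.014) for Col6a3 to Col6a1.

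Col15a1 and Col18a1 encode the multiplexins, whose C-terminal fragments are known as restin and endostatin, which inhibit the growth of vessels. Col15a1 is at chr4:47208161-47313167 on the plus strand and shares 14 exonic bases with the antisense gene Gm12426, which had 0 counts. Its level was 222, 177 and 314 CPM under LGK-974 and 81.9, 118 and 120 CPM under DMSO. The groups did not overlap, and the lowest LGK-974 library was 1.48 times the highest DMSO library, the widest gap of the 10 genes. The log2 fold change was 1.16 (standard error 0.267, unadjusted p = 0.00268, adjusted p = 0.368 with edgeR, and 0.00497 with DESeq2). Col18a1, at chr10:77052178-77166548 on the minus strand, had 24.7, 22.4 and 46.9 CPM under LGK-974 and 17.8, 25.2 and 25.4 CPM under DMSO. Only LGK-974 replicate 3 lay above all DMSO libraries. Its log2 fold change was 0.46 (standard error 0.303, adjusted p = 0.468 with edgeR), and without LGK-974 replicate 3 it was 0.11.

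The multiplexins differed from each other within each library. The TPM ratio of Col15a1 to Col18a1 was 9.42, 7.72 and 7.20 under LGK-974 and 4.56, 3.91 and 5.40 under DMSO. Each LGK-974 library had a higher ratio than each DMSO library, with a mean log2 difference of 0.81 (two-sided exact permutation p = 0.1, the smallest possible). The difference was 0.74 on CPM and 0.71 on protein-coding transcripts over 2000 bases (exact p = 0.1 in both), and it was 0.70 or more with any library left out. The log2 TPM ratio of Col12a1 to Col14a1, the 2 large FACIT genes, differed by 0.23 between groups with overlap (exact p = 0.7), and by 0.026 to 0.51 with a library left out. In all, 8 ratios were compared within libraries, and none could have reached 0.05 in this design, before or after adjustment.

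**Figure D2:**
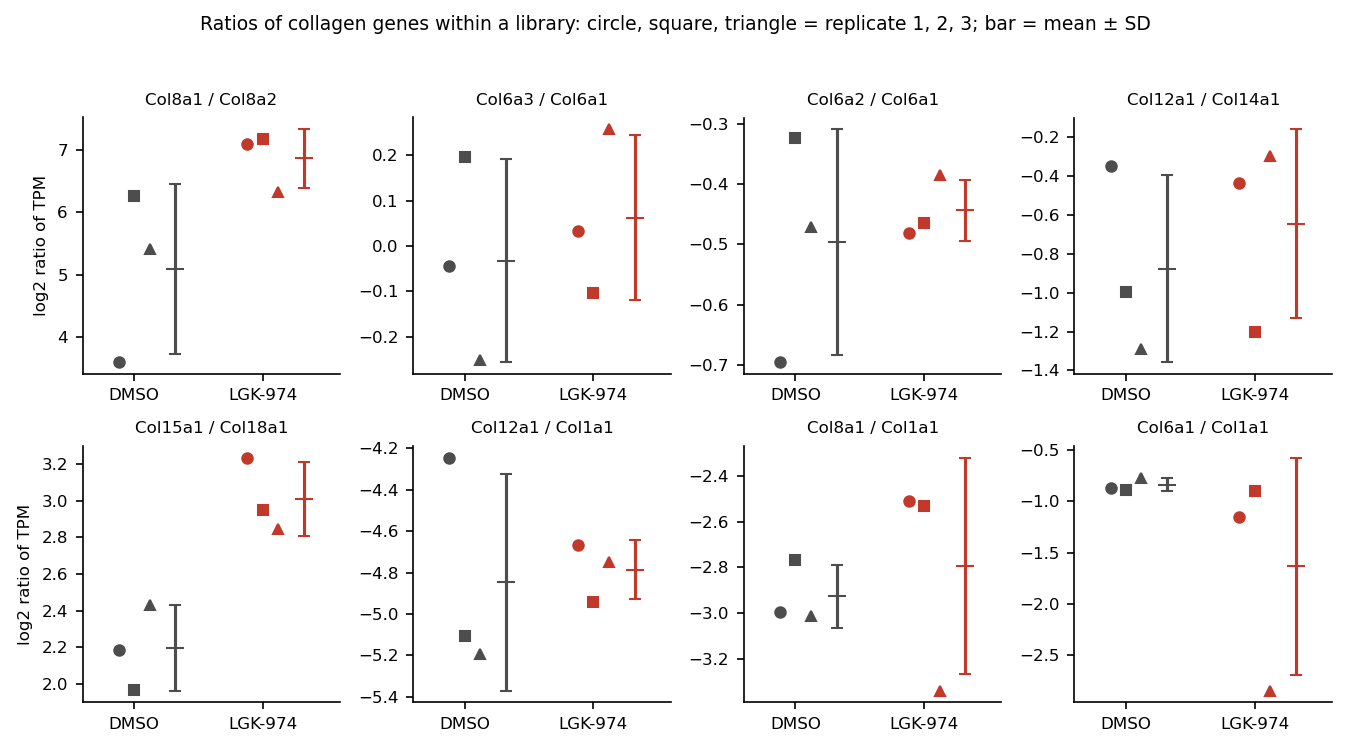
log2 of the TPM ratio for 8 pairs of collagen genes in each library (symbols for replicates 1 to 3; bars for mean ± SD of 3 libraries), on axes that do not start at 0. The ratio of Col15a1 to Col18a1 did not overlap between the groups (7.20 to 9.42 against 3.91 to 5.40), while that of Col6a2 to Col6a1 stayed between 0.617 and 0.80 in all libraries.

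The promoter sequences of these genes were looked up in RefSeq (GRCm38.p6), which gave 10 windows of 250 bases upstream of the transcription start for 8 of the 10 genes. Col12a1 and Col14a1 had no entry in the table. Windows are shown for the 2 collagen VIII genes, which encode chains of the same protein, for Col15a1 and Col16a1, which did not overlap between groups, and for Col6a1, which did. They are written 5′ to 3′ on the strand of the gene, and capitals mark letters that match a searched motif on either strand. Positions refer to the RefSeq start, which for some genes differs from the gene coordinates given above. The Col6a1 window, from 76726045, overlaps the gene as given, which reaches 76726168, and so does a Col6a2 window from 76623405 (gene to 76623630). Of the Col18a1 windows, the one from 77166531 overlaps the end of the gene at 77166548. The other, from 77113706 to 77113955, lies inside the gene. The Col8a2 window ends on the first base of its gene, 126286793. The Col15a1 window ends at 47208011, before the gene start at 47208161.

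Col8a1, chr16:57754738-57754987, minus strand: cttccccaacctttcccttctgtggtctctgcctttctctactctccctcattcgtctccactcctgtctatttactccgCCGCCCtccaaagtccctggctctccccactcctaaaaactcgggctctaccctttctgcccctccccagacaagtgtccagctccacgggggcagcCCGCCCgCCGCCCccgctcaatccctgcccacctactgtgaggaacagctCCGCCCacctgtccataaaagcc
Col8a2, chr4:126286544-126286793, plus strand: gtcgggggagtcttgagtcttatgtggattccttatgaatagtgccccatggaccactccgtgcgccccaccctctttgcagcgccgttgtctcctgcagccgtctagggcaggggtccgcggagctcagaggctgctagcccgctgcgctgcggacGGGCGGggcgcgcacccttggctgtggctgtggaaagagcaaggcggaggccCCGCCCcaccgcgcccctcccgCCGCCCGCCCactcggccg
Col15a1, chr4:47207762-47208011, plus strand: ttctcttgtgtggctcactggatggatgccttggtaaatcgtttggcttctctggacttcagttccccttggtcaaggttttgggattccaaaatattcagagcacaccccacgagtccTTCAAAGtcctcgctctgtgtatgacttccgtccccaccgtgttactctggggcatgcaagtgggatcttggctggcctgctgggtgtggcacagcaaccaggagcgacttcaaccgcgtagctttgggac
Col16a1, chr4:130047590-130047839, plus strand: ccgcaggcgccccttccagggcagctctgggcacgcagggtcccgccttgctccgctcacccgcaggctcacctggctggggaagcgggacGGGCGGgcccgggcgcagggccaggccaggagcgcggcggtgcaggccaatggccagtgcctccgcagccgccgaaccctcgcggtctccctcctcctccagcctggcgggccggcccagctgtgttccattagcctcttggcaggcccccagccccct
Col6a1, chr10:76726045-76726294, minus strand: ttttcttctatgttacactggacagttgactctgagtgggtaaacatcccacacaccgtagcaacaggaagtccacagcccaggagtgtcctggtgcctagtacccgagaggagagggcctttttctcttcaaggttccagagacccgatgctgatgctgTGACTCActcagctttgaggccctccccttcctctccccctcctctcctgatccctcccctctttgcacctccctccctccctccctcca

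The motifs searched were CTTTGAA or CTTTGAT (TCF/LEF, the factors of canonical Wnt signaling), TGANTCA (AP-1), CATTCC (TEAD), GGGCGG (SP1) and TATAAA (the TATA box), each on both strands. Col8a1 and Col8a2 each held 4 SP1 matches, of which the last 2 in Col8a2 overlap, and Col16a1 held 1. Of the windows not shown, those of Col6a2 held 3 and 1 and one of Col18a1 held 3. SP1 letters were present in 32.7% of all 32851 windows. Col15a1 held a TCF/LEF match, TTCAAAG, 131 to 125 bases before the start, and so did 1 of the 2 windows of Col6a2 (CTTTGAA, 197 to 191 bases before the start). Such a match was found in 7.48% of all windows. Col6a1 held 1 AP-1 match, TGACTCA, at 90 to 84 bases before the start, as did 6.75% of all windows. TEAD letters occurred in 1 window of Col6a2 (1 match) and in 1 of Col18a1 (2 matches), and in 12.6% of all windows. No TATAAA was found in any of the 10 windows. The GC content of the Col16a1 and Col8a2 windows was 75.6 and 70.0%, compared with a median of 52.4% over all windows. These matches describe the letters only, and binding of the factors was not measured.

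**Figure D3:**
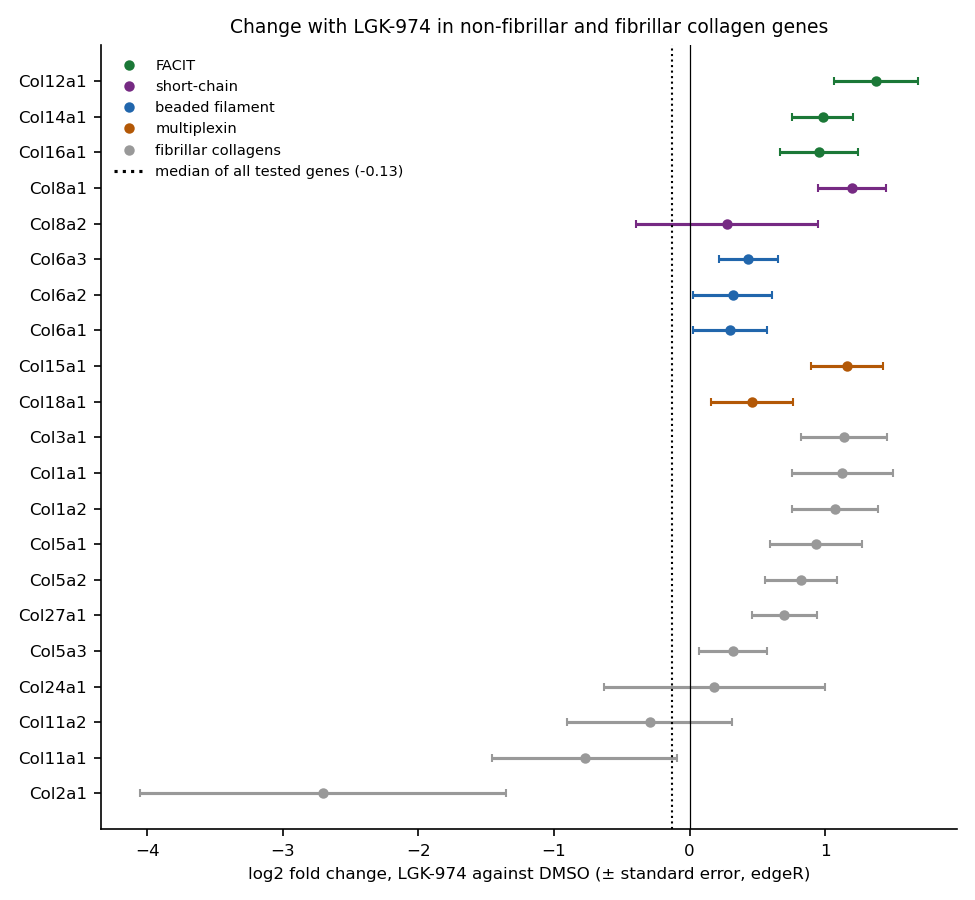
Difference between LGK-974 and DMSO as log2 fold change (x axis, edgeR, bars for the standard error) for the 10 non-fibrillar collagens, coloured by class, and for 11 fibrillar collagens in grey, with a dotted line at the median of all genes tested, −0.13. Col12a1, Col8a1 and Col15a1 lay at 1.16 to 1.37 and Col3a1, Col1a1 and Col1a2 at 1.07 to 1.14, and the collagen VI genes lay at 0.30 to 0.43.

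Of 11 fibrillar collagen genes, 6 were higher at an unadjusted p under 0.05 with edgeR (6.26% of all genes) and 0 were lower (7.18%). Their median log2 fold change was 0.70. Those with the smallest p were Col3a1 (log2 fold change 1.14), Col1a2 (1.07) and Col5a2 (0.82), chains of the fibrils of the scar. The 23 other non-fibrillar collagens, among them those of basement membranes and of cartilage, had a median of −0.85. At that p, 0 of them were higher and 2 lower, the latter close to the 7.18% of all genes. Their smallest p-values belonged to Col4a4 (−0.66), a chain of basement membrane collagen IV, and to Col6a5 (−2.67) and Col25a1 (−1.47). Of these, Col6a5 and Col25a1 were at or below 2.99 and 10.1 CPM, and both were highest in DMSO replicate 1. In the list of 23, 6 genes had a positive and 17 a negative log2 fold change. The 2 most abundant, Col4a1 and Col4a2 of basement membranes, were among the positive ones (0.53 and 0.45) without reaching that p. Their mean levels were 889 and 672 CPM under LGK-974, against 616 and 493 CPM under DMSO. None of these genes passed the adjusted threshold.

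Within libraries, Col12a1, Col8a1 and Col6a1 were set against Col1a1, the main chain of fibrillar collagen I. The log2 TPM ratio of Col12a1 to Col1a1 differed by 0.06 between groups (two-sided exact permutation p = 0.9) and that of Col8a1 to Col1a1 by 0.13 (exact p = 0.8). Both were smaller than the SD within a group. The ratio of Col6a1 to Col1a1 was 0.450, 0.536 and 0.139 under LGK-974, compared with 0.549, 0.541 and 0.588 under DMSO. All LGK-974 libraries were below all DMSO libraries, replicate 2 by a narrow margin, and the mean log2 difference was −0.79 (exact p = 0.1, the smallest possible). Without LGK-974 replicate 3 it was −0.19, and on CPM the groups overlapped (−0.75, exact p = 0.3). The 10 genes together held 20.5 ± 3.99% (SD, n = 3) of the TPM of 44 collagen genes with LGK-974, compared with 22.6 ± 1.28% (SD, n = 3) with DMSO (exact permutation p = 0.6). Within the 10 genes, Col8a1 held 8.93 ± 1.22% of the TPM under LGK-974 against 5.84 ± 0.557% under DMSO, and Col15a1 held 21.0 ± 4.95% against 15.3 ± 1.35% (SD, n = 3, exact p = 0.1 for each, the smallest possible, without overlap). All 10 genes were compared in this way, and the shares of the others overlapped. The shares of a library add up to the whole, so they are not independent.

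Genes that modify, cross-link or bind collagens were taken as lists. Of all genes tested, 6.26% were higher and 7.18% lower at an unadjusted p under 0.05 with edgeR. Of those with a mean of at least 10 CPM, 12.0% were higher. Of 28 genes of collagen biosynthesis, 14 were higher and 1 was lower at an unadjusted p under 0.05 with edgeR, and the median log2 fold change was 0.54. The smallest p-values were those of P4ha3, a subunit of prolyl hydroxylase (log2 fold change 1.32), and of Loxl2 (1.29) and Lox (1.12), which cross-link collagen chains. Adamts3, a procollagen peptidase, was the gene that was lower (−0.67). Of 12 collagen receptors, 2 were higher and 0 lower with a median of 0.29, too few to set apart from the shares of all genes. They were Antxr1, which binds collagen VI (0.59), and Mrc2, an endocytic receptor for collagen (0.75), and next in order was the integrin chain Itgb1 (0.39), which did not reach that p. Of 18 matrix partners of fibrils, 4 were higher and 0 lower with a median of 0.25. The first 3 were Thbs4 (1.33), Aspn (0.86) and Tnc (1.73), which encodes tenascin-C, a glycoprotein of wounded tissue. Over these lists and the other collagens, 92 genes in all, 26 were higher and 3 lower, which became 16 and 0 without LGK-974 replicate 3. Without DMSO replicate 3 there were 9 lower genes, and without DMSO replicate 1 there were 0.

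Markers of the cell types of the tissue were examined as lists. In bulk tissue, fewer cells of a type and less RNA per cell cannot be told apart. A list of 12 markers of resident fibroblasts, Pdgfra and Tcf21 among them, had a median log2 fold change of 0.28. Of these, 2 were higher at an unadjusted p under 0.05, against 6.26% of all genes (12.0% at a mean of at least 10 CPM). The summed level of the list ranged over 405 to 715 CPM in the LGK-974 libraries and over 446 to 822 in the DMSO libraries, which overlap. Gsn (log2 fold change −0.68) held 102 to 300 CPM of this under LGK-974 and 199 to 489 under DMSO. Of the 12 markers, 9 had a positive log2 fold change and 3 a negative one. A list of 10 markers of activated fibroblasts, such as Postn, had a median of 1.07 with 5 genes higher, and 519 to 1077 CPM against 236 to 339. Postn alone held 349 to 652 CPM of this under LGK-974 and 126 to 208 under DMSO. Of the 10, 9 had a positive log2 fold change, 4 of them without overlap between the groups, and Fap a negative one (−0.21). Leukocyte markers had a median of 0.92 with 9 of 10 higher, and 456 to 595 CPM against 200 to 284. Of 12 cardiomyocyte markers, 11 had a negative log2 fold change, and none was lower at that p, while Actc1 was higher (log2 fold change 0.86, unadjusted p = 0.0251 with edgeR) and did not overlap between the groups. Endothelial (10 genes) and mural (8 genes) lists had medians of 0.03 and 0.09 with 0 genes higher or lower. The 6 epicardial markers summed to between 9.33 and 10.02 CPM in LGK-974 libraries and between 8.77 and 33.0 CPM in DMSO libraries, and Upk1b was at 0 in DMSO replicate 3. No other marker on these lists was at 0 in any library. The part of these differences in the levels of the collagen genes was not tested.

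Relative to the mean log2 level of the fibroblast markers in the same library, Col12a1 was higher by 1.07 and Col8a1 by 1.001 on the log2 scale under LGK-974, and the groups overlapped (two-sided exact permutation p = 0.2 for each). The value of Col12a1 was 0.61 without LGK-974 replicate 3 and 1.49 without LGK-974 replicate 2. Col14a1 was higher by 0.74 and Col15a1 by 0.92 without overlap (exact p = 0.1 for each). All 10 genes were compared with both lists, 20 comparisons in all, and none could reach 0.05 in this design. Relative to the fibroblast markers, the other 6 genes had differences of 0.06 to 0.70 with overlap. Relative to the activated fibroblast markers, the differences were 0.47 for Col12a1 and 0.32 for Col15a1 without overlap (exact p = 0.1 for each), and 0.40 for Col8a1 (exact p = 0.2) and 0.14 for Col14a1 (exact p = 0.5) with overlap. Col16a1 differed by 0.10 with overlap. The differences of Col6a1 (−0.54), Col6a2 (−0.48), Col6a3 (−0.38) and Col8a2 (−0.47) were negative and overlapped between the groups (exact p = 0.5 for each). For Col18a1, the difference relative to these markers was −0.43 (exact p = 0.1, without overlap).

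**Figure D4:**
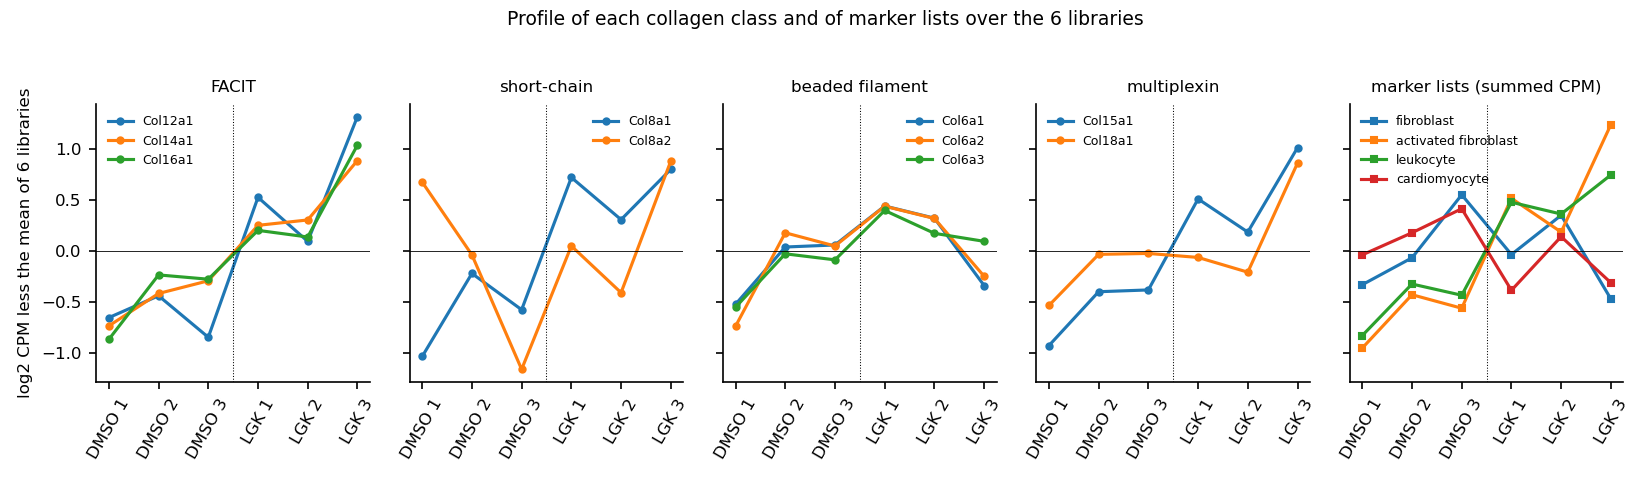
log2 CPM less the gene's mean over the 6 libraries (y axis) for each collagen class and for the summed level of 4 marker lists, by library on the x axis; lines only connect the points of a gene or list. The FACIT genes, the multiplexins and the activated fibroblast list were highest in LGK-974 replicate 3, in which the 3 collagen VI genes and the fibroblast list were lowest within their group.

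The genes also differed in how single libraries deviated. LGK-974 replicate 3 was the highest of its group in 7 genes and the lowest in the 3 collagen VI genes. DMSO replicate 1 was the lowest of its group in 8 genes, and only Col8a2 was highest there. Among pairs of the 10 genes, the profiles over the 6 libraries were closest for Col6a1 and Col6a2, with a mean absolute distance of 0.077 on the log2 scale, followed by Col14a1 and Col16a1 (0.116). The corresponding distance between Col8a1 and Col8a2 was 0.657. Over 15515 other genes with at least 1 CPM on average, the profiles nearest to the mean of the FACIT class were those of Olfm1 (0.068), Basp1 (0.071) and Col1a2 (0.082). Nearest to the mean of the collagen VI genes were Pmp22 (0.045), Medag (0.072) and Ifngr1 (0.074). Nearest to the mean of the multiplexins were Pik3cd (0.043), Pdlim7 (0.046) and Lsp1 (0.052), and to that of the short-chain genes Bub1 (0.074), Trim46 (0.074) and Slfn1 (0.083). The 2 short-chain genes lay 0.657 apart and the 2 multiplexins 0.373, so a gene near their mean need not resemble either of them. These distances are descriptions over 6 libraries, which share their depth and composition.

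Levels between genes were compared as TPM of protein-coding transcripts over 2000 bases, because short transcripts with few counts can hold a large share of a gene's TPM. This choice also leaves out longer transcripts that are not annotated as coding and, in Col15a1, a coding transcript of 1755 bases with 18.4% of its counts. It kept 24.9 and 9.90% of the TPM of Col16a1 under DMSO and LGK-974, and 50.4 and 55.7% of that of Col15a1. A Col6a3 transcript of 476 bases, for example, held 35.0% of the TPM of its gene but 1.93% of its counts. In DMSO libraries, Col6a1 was highest with 49.9 ± 18.5 TPM (SD, n = 3), followed by Col6a2 (36.0 ± 15.9) and Col6a3 (26.1 ± 9.58). Col15a1 (15.4 ± 5.99) and Col8a1 (10.8 ± 4.46) were in the middle of the order. Below them came Col14a1 (5.65 ± 1.86), Col18a1 (3.68 ± 1.34), Col12a1 (1.97 ± 0.572) and Col16a1 (1.83 ± 2.45), and Col8a2 was last with 0.178 ± 0.0797. Ranges of neighbours in this order overlapped except for Col16a1 and Col8a2, although within each DMSO library every gene down to Col18a1 was above its next neighbour. Under LGK-974, Col6a1 was again the highest with 72.7 ± 15.4 TPM and Col8a2 the lowest with 0.356 ± 0.307, while Col15a1 (48.2 ± 36.2) preceded Col6a3 (44.1 ± 16.3) and Col12a1 (7.79 ± 6.46) preceded Col18a1 (7.48 ± 6.39). Both of these pairs overlapped. The order depended on the transcripts counted. On the TPM of all transcripts, Col15a1 was the highest under LGK-974 (86.4 ± 55.3), Col6a1 remained the highest under DMSO (50.1 ± 18.3), Col16a1 was above Col14a1 and Col18a1 in both groups, and Col8a2 remained the lowest in both. TPM is not scaled by TMM, so these levels serve to order genes within a group.

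**Figure D5:**
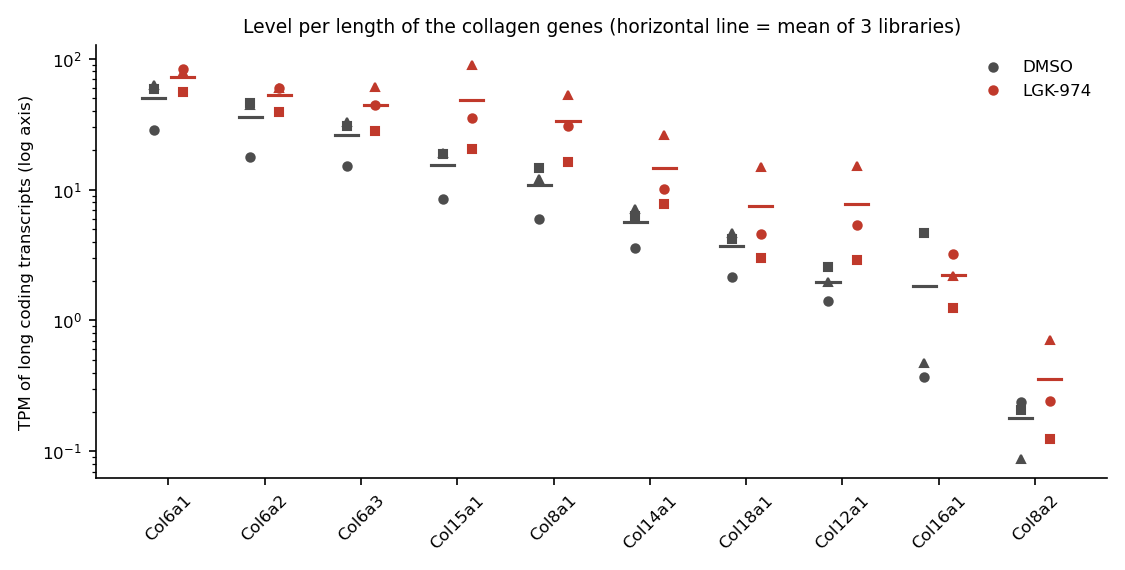
TPM of protein-coding transcripts over 2000 bases (log axis) for the 10 genes in each library, ordered by the DMSO mean, with symbols for replicates 1 to 3 and a horizontal line for the mean of 3 libraries. Levels in DMSO libraries ran from 49.9 for Col6a1 to 0.178 for Col8a2, and Col16a1 spread from 0.368 to 4.66 between them.

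Transcripts of each gene were compared by their share of the gene's TPM, for 30 transcripts that held at least 5%. In 4 of the 30, the groups did not overlap (two-sided exact permutation p = 0.1 for each, the smallest possible, so that none could pass a correction over 30 tests). Of 51593 such transcripts of all tested genes, 5159 (10%) did not overlap, a share close to that of these genes, and 2 of the 4 are the transcripts of Col8a1, whose shares add up to the whole. The values that follow are therefore a description. Col14a1-204, a protein-coding transcript of 2085 bases, held 15.5 ± 2.55% under LGK-974 and 20.6 ± 1.53% under DMSO (SD, n = 3). The main Col8a1 transcript, Col8a1-201, held 92.4 ± 0.682% against 90.6 ± 1.04%, and the retained-intron transcript Col8a1-202 held the rest. A processed transcript of Col16a1 of 833 bases held 27.0 ± 2.11% against 16.6 ± 12.0%, with a range of 2.77 to 24.4% in the DMSO libraries. Its difference of 10.4 percentage points was 3.51 without DMSO replicate 2, and on estimated counts it was 1.13 with overlap (exact p = 0.7). In Col12a1, the longest form, Col12a1-201 of 11511 bases, held 59.5 ± 7.74% against 49.7 ± 9.88% (exact p = 0.3), and the next, Col12a1-202, held 17.1 ± 3.22% against 16.4 ± 5.47% (exact p = 0.8). Col6a1 was represented almost entirely by Col6a1-201 with 99.9% of its counts. The counts of Col16a1 were divided among many transcripts, and Col16a1-201 received 0 to 62.5% of them in single libraries, and its share varied more among the DMSO libraries (25.1 ± 33.1%) than between the groups (14.3 ± 12.3% under LGK-974; SD, n = 3).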

How the data were processed

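RNA of the infarct area from 6 mice was sequenced in the study. The authors quantified transcripts with Kallisto on an index of GRCm38 and deposited, for each of 118489 transcripts, an estimated count and a TPM value per library. The program's version and read trimming are not given in the sources used here. RiboZero depletion and a capture kit are both named for these libraries. Through GENCODE annotation of GRCm38, 98.6% of transcripts were joined to genes, and the estimated counts of a gene's transcripts were added up and rounded. Kallisto divides reads between transcripts that share sequence, and whether strand was used is not given in the sources used here.

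A gene was tested where 3 or more libraries had 10 or more counts, with edgeR 4.0.16 (R 4.3.3, TMM, quasi-likelihood, treatment only, Benjamini-Hochberg, threshold 0.05). As an alternative, limma 3.58.1 (voom) was run on the same genes. DESeq2 1.42.0, another alternative, was run without this filter and gave a p for 34193 genes. Deposited TPM values were used for ratios, transcript shares and orders of levels, with exact permutation tests over all 20 divisions of the mice. Differences in log2 CPM used a prior count of 2. The fits were tested on simulated data. Figures were drawn with matplotlib 3.10.9 under Python 3.11.15, with pandas 2.3.3, NumPy 2.4.6 and SciPy 1.17.1. The members and lists were chosen with earlier results of these data known. Named were all 10 genes, the 3 genes of each collagen-related list with the smallest unadjusted p, defining markers of the cell type lists, and the 3 nearest profiles per class. Adamts3, Actc1, Upk1b, Col4a1, Col4a2, Gsn, Fap and the transcripts were named after their values were seen. Groups and replicate numbers come from the labels. Other alternatives were size factors, filters of 0 and 50 counts, counts scaled from TPM, protein-coding genes without mitochondrial genes, a replicate block and leaving out each library.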

Additional observations from a re-analysis of the deposited data

How the results depend on the processing

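The same 5 genes (Col12a1, Col14a1, Col16a1, Col8a1 and Col15a1) were higher at an unadjusted p under 0.05 in all 14 alternatives, and 0 were lower. DESeq2 added Col6a3 and the fit without a filter added Col18a1. At an adjusted p, edgeR with its filter called 0 of the 10 genes. On unfiltered genes, DESeq2 called 4 (289 of all genes) and edgeR called 5 (1206 of all genes). The median log2 fold change of the 10 genes was 0.62 to 0.92 over the alternatives, and 5 to 8 genes did not overlap. With counts scaled from TPM it was 5, as Col6a3 overlapped (11% of all genes), and with a library left out it was 6 to 8 (14.0 to 23.5% of all genes). The log2 fold change of Col8a2 was −0.54 with counts scaled from TPM, and −0.080 to 0.82 with a library left out (−0.080 without LGK-974 replicate 3). The 92 genes of the collagen lists held 3 lower genes in the main comparison, 7 with DESeq2, 5 with limma-voom, 6 without a filter, 1 with counts scaled from TPM and 0 to 9 with a library left out (0 without LGK-974 replicate 3 or DMSO replicate 1, and 9 without DMSO replicate 3). The 26 higher genes of these lists became 16 to 30 with a library left out, with 16 without LGK-974 replicate 3, and 32 with DESeq2. With a library left out, the log2 difference in the ratio ranged from −0.014 to 0.21 for Col6a3 to Col6a1 (−0.0027 without LGK-974 replicate 3 and −0.014 without DMSO replicate 3), from −0.047 to 0.14 for Col6a2 to Col6a1 (lowest without DMSO replicate 1), from −0.11 to 0.36 for Col12a1 to Col1a1 (−0.07 without DMSO replicate 2, −0.11 without DMSO replicate 3) and from −0.011 to 0.41 for Col8a1 to Col1a1 (lowest without LGK-974 replicate 1). Transcript shares without overlap numbered 3 on estimated counts and 4 to 10 with a library left out (10 without DMSO replicate 2, 8 without DMSO replicate 3). The share of Col12a1-202 differed by −0.74 percentage points on estimated counts and by −2.34 to 2.92 with a library left out (−0.39 without LGK-974 replicate 2, −0.0028 without LGK-974 replicate 3 and −2.34 without DMSO replicate 1). The cause of these changes was not tested.

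Deviations of libraries with the same replicate number correlated at 0.47, −0.05 and 0.39 for replicates 1, 2 and 3. With different numbers they correlated at −0.52 to 0.1. These values do not decide whether the numbers pair the mice, and the main comparison treated the groups as unpaired. With the replicate block, 5 of the 10 genes were again higher at an unadjusted p, 0 passed the adjusted threshold, and the lists held 28 higher and 8 lower genes. The edgeR adjusted p of Col14a1 was then 0.124. Over all genes, 1209 were higher and 2103 lower at an unadjusted p under 0.05 with this block. The median of the 10 genes was 0.68. Col8a2 had 17 to 117 counts per library and each of the others at least 615 in every library. Counting error and the spread between mice were not separated.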
